A study of Mus musculus with 8 samples.

Results

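The 44 genes described here encode the machinery of G2 and mitosis: CDK1 and its cyclins, the mitotic kinases, the spindle checkpoint, centromere proteins, kinesins, spindle assembly factors, the activator and substrates of the anaphase-promoting complex (APC/C), and cytokinesis proteins. They were chosen by name, and all 44 are among the 23234 gene symbols of the table. In dividing cells these genes are transcribed mostly from late S phase to mitosis, under the FOXM1 factor and the MuvB complex, and their products drive mitotic entry, chromosome segregation and exit. In a germinal centre, the structure in which activated B cells mutate and select their antigen receptors, cells divide in the dark zone (DZ) and are selected by antigen and T cell help in the light zone (LZ), so the mitotic transcript level is known to differ between zones.

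RNA was sequenced from splenic germinal centre B cells in 4 groups of 2 libraries. All donor cells were C57BL/6 in background and carried floxed Prdm1 alleles, Prdm1(f/f), a knocked-in tamoxifen-inducible recombinase, ERT2cre(KI/+), and the B1-8hi(KI/+) antigen receptor, which binds the hapten NP. They differed in Bach2, which encodes a repressor factor of B cells: the alleles were intact, Bach2(+/+), or floxed, Bach2(f/f). Prdm1 (Blimp1, the plasma cell factor) was thus targeted in all 4 groups, so there is no comparison with cells that keep Prdm1. The series' design text accordingly calls the groups Blimp1-deficient and doubly deficient. Naive donor B cells were moved into wild-type recipients, which kept their own B cells, tamoxifen was given (3 mg, 3 days), and the mice were immunized with NP-CGG in alum. On day 10, NP-binding GL7+ CD38- donor cells from the pooled spleens of 5 recipients were sorted as LZ (high CD86, low CXCR4) or DZ (low CD86, high CXCR4) cells. The promoter that drives ERT2cre and the age of the mice are not given in the sources used here. Nor is it stated that replicates are separate pools, so the spread behind each p-value may be only technical.

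Values are FPKM, fragment counts scaled by transcript length and by the mapped fragments of the library, and are listed as replicate 1 and then replicate 2. Changes are differences between group means on the log2(FPKM + 1) scale ± SE from 1 limma fit to the 10610 genes that reached 1 FPKM in 2 or more libraries. A gene is said to rise or fall, or is called, where its p adjusted over all of these genes (Benjamini-Hochberg) is under 0.05. All 44 genes passed the filter, with 7.77 FPKM as the lowest and 242 FPKM as the highest value in any library. Replicates correlated at 0.946 to 0.96 (Pearson, across genes). Absolute depth is not recorded in FPKM; the steps between low values put the DZ libraries at 1.42 to 1.63 times the depth of Bach2(+/+) LZ replicate 1 and the other LZ libraries at 1.05 to 1.1 times. Bach2(+/+) LZ replicate 2 stood apart, with the lowest level of the 8 libraries in 39 of the 44 genes. The sort showed in its markers: Cd86 was at 90.9 and 106 FPKM in Bach2(+/+) LZ, 77.4 and 78.8 in Bach2(f/f) LZ and 31.2 to 38.4 in DZ, and Cxcr4 at 73.5 to 78.3 in LZ and 129 to 139 in DZ. Bach2 itself was at 49.8 and 53.4 FPKM in Bach2(+/+) LZ, 64.5 and 62.7 in Bach2(f/f) LZ, 76.2 and 74.6 in Bach2(+/+) DZ and 96.2 and 94.5 in Bach2(f/f) DZ. The deleted exon is not given in the sources used here and a gene-level FPKM counts the exons that remain, so this level checks nothing about the labels. Prdm1, targeted in both genotypes, was under 1 FPKM in every library, so it did not pass the filter and has no test. In LZ it was at 0.0577 and 0.0184 FPKM in Bach2(+/+) and 0.98 and 0.967 in Bach2(f/f) libraries. In DZ it was at 0.0473 and 0.122 in Bach2(+/+) and 0.258 and 0.434 in Bach2(f/f) libraries. As for Bach2, such a level also counts exons that remain. The part of Prdm1 in the mitotic differences was not tested.

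Mitotic genes were higher in DZ than in LZ cells of either genotype, and part of them were also higher in LZ cells with floxed Bach2. In Bach2(+/+) cells, 42 of the 44 rose in DZ and 0 fell, with a median difference of 0.56; among all genes tested 16.1% rose and 15.2% fell in this comparison, and the median was 0.0045. In Bach2(f/f) cells, 36 rose in DZ and 0 fell, with a median of 0.46, against 16.1% of all genes that rose, 18% that fell and a median of -0.0065. With Bach2 floxed, 21 rose in LZ and 0 fell (median 0.21), against 18.4% of all genes that rose, 12.7% that fell and a median of 0.022. In DZ, 3 rose and 0 fell (median 0.099), against 6.63% of all genes that rose, 5.23% that fell and a median of 0.014. The bulk libraries do not separate more cells in G2 and mitosis from more mitotic RNA per cell.

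**Figure D1:**
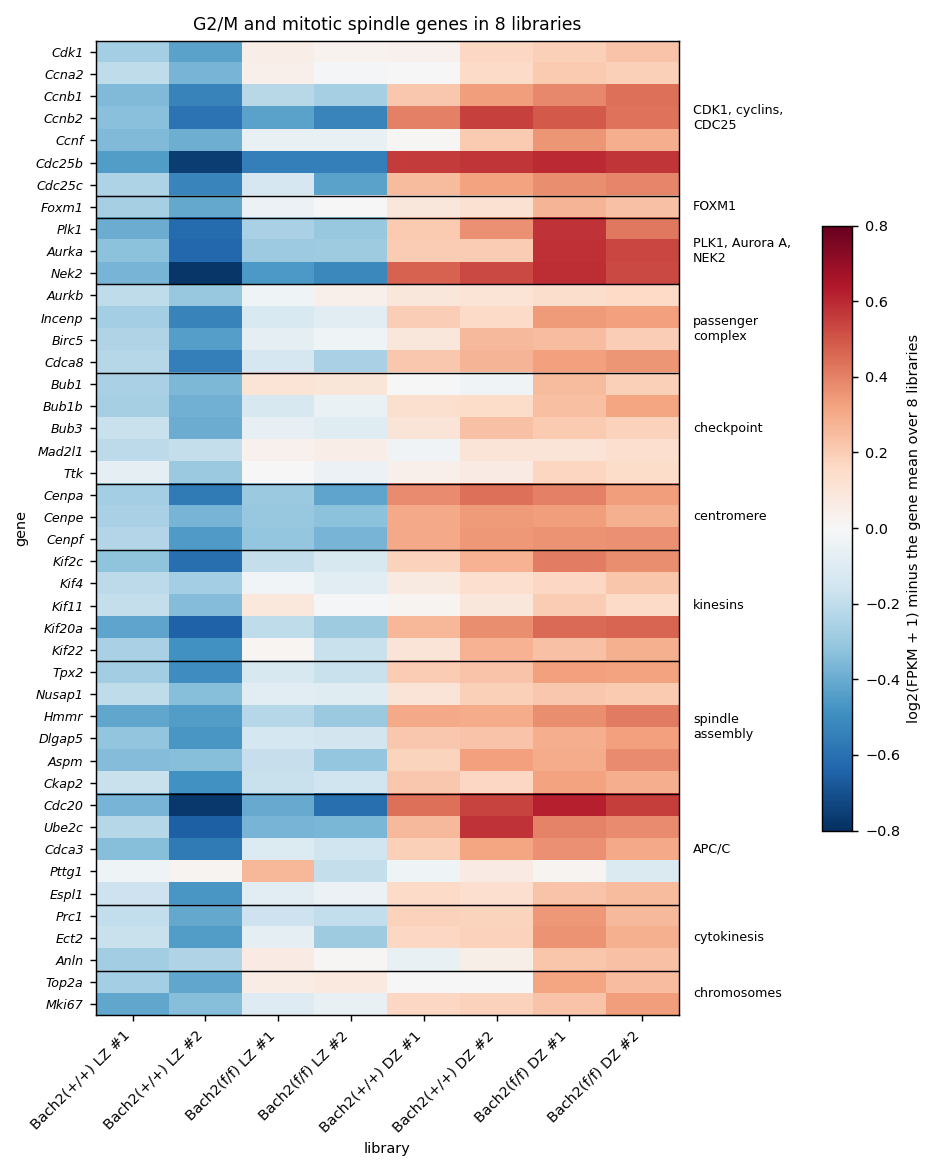
Level of each of the 44 genes (rows, grouped by role) in each library (columns), as log2(FPKM + 1) minus the gene's mean over the 8 libraries (colour scale cut at -0.8 and 0.8). The 4 LZ columns are mostly blue and the 4 DZ columns mostly red; Bach2(+/+) LZ replicate 2 holds the lowest value of 39 genes, and Pttg1 does not follow the zones.

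The promoters of these genes share letters that choosing them by name did not use. The cell cycle homology region (CHR), TTTGAA or TTCGAA, is the textbook element through which MuvB complexes bind G2/M promoters, and CCAAT boxes bind NF-Y beside it. RefSeq promoters (250 bases before to 50 bases after a start site, build GRCm38.p6) matched 36 of the 44 genes by symbol, with 39 promoters. Both motifs were searched on both strands. A CHR match within 50 bases of the start site was found in 28 of the 39 promoters (71.8%), against 5.31% of all 32851 promoters of the same length in the table and 3.68% of the 9424 promoters of genes tested here. At least 1 CCAAT was found in 84.6%, against 37.4% and 38.9%. Both a CHR match near the start and a CCAAT were found in 69.2%, against 2.24% and 1.8%. Among the 36 genes, the 26 with a CHR match near a start had a median DZ minus LZ difference of 0.52 in Bach2(+/+) cells and the 10 without one had 0.54, so these medians lay close together. These matches describe the sequence only; binding was not measured.

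The promoters of 6 genes are printed because these genes show the patterns found among the 44: a large zone difference without a genotype call (Cdc25b, Ccnb2, Cdc20), a smaller zone difference with a rise in Bach2(f/f) LZ cells (Cdk1, Top2a), and neither (Pttg1). Each is written 5′ to 3′ on the gene's strand, in lower case, with CHR and CCAAT matches of either strand in capitals (TTTGAA reads TTCAAA and CCAAT reads ATTGG on the reverse strand). The deposited values were made on mm9, so none was read at these coordinates.
Cdc25b, chr2:131186698-131186997 (+ strand): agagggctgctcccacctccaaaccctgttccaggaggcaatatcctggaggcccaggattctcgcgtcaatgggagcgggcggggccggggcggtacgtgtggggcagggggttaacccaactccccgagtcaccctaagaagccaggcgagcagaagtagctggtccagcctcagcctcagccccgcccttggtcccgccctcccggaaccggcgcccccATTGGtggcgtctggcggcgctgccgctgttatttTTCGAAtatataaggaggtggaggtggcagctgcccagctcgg
Ccnb2, chr9:70421505-70421804 (- strand): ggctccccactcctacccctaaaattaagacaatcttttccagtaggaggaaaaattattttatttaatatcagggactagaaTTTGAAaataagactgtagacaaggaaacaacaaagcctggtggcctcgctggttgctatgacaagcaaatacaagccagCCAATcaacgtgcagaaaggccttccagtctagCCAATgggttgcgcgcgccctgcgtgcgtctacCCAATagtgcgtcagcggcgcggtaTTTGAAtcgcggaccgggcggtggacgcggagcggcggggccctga
Cdc20, chr4:118437294-118437593 (- strand): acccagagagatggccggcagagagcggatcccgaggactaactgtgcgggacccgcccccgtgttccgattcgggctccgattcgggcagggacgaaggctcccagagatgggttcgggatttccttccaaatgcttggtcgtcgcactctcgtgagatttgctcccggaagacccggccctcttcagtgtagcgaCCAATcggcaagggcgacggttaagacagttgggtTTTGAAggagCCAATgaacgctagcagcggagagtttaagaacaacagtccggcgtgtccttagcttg
Cdk1, chr10:69352863-69353162 (- strand): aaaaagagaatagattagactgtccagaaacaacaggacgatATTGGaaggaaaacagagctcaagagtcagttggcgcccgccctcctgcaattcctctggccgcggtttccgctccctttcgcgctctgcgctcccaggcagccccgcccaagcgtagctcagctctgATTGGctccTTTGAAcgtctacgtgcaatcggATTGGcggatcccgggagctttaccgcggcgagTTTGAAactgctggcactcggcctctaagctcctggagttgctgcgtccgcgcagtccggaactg
Top2a, chr11:99024140-99024439 (- strand): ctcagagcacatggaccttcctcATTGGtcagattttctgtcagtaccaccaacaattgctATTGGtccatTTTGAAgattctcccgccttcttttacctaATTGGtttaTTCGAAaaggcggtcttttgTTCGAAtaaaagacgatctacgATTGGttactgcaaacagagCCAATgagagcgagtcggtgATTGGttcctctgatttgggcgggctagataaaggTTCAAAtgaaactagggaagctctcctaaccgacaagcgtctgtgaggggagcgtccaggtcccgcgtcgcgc
Pttg1, chr11:43425932-43426231 (- strand): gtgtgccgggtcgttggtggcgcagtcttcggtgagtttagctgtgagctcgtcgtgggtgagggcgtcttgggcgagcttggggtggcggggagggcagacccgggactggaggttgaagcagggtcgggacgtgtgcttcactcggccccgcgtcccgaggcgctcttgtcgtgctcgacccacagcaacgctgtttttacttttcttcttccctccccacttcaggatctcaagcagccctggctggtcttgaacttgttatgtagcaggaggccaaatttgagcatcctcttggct
In Cdc25b a CHR match starts 8 bases into the transcript with an inverted CCAAT 28 bases before its start. Ccnb2 has 3 CCAAT boxes, at 87, 54 and 21 bases before the start, and a CHR match at base 5 after it. Cdc20 has its CHR match 18 bases before the start, and Cdk1 has one 15 bases before it. Top2a has 6 CCAAT and 4 CHR matches, the nearest CHR match 23 bases before the start. The Pttg1 window holds none of these letters, which says nothing about other start sites of that gene.

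CDK1 is the kinase that starts mitosis, cyclins A and B activate it, cyclin F is a ubiquitin ligase subunit, and CDC25 phosphatases remove its inhibitory phosphates. All 7 genes of this group rose in DZ with Bach2 intact, and 5 of 7 with Bach2 floxed. Cdc25b had the largest zone difference of the 44 genes. It was at 75.7 and 60.7 FPKM in Bach2(+/+) LZ, 70.5 and 70.4 in Bach2(f/f) LZ, 153 and 154 in Bach2(+/+) DZ, and 157 and 154 in Bach2(f/f) DZ. Both DZ groups lay above all LZ libraries, by 1.17 ± 0.093 with Bach2 intact and 1.13 ± 0.093 with Bach2 floxed (adjusted p = 0.000468 and 0.000421, limma), and the genotypes overlapped in LZ. Ccnb2 (cyclin B2) was at 71.8 and 59.9 in Bach2(+/+) LZ, 67.1 and 62.4 in Bach2(f/f) LZ, 120 and 133 in Bach2(+/+) DZ and 128 and 123 in Bach2(f/f) DZ. Its zone difference was 0.94 in both genotypes (SE 0.093), and its genotype difference was -0.018 ± 0.093 in LZ and -0.013 ± 0.093 in DZ.

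The other cyclin genes and Cdk1 behaved differently. Cdk1 was at 32.1 and 28.7 FPKM in Bach2(+/+) LZ, 40.5 and 39.7 in Bach2(f/f) LZ, 39.9 and 43.8 in Bach2(+/+) DZ, and 44.5 and 45.7 in Bach2(f/f) DZ. The Bach2(f/f) LZ libraries lay above Bach2(+/+) LZ (0.39 ± 0.067, adjusted p = 0.00726, limma) and overlapped Bach2(+/+) DZ; the zone difference was 0.45 ± 0.067 with Bach2 intact and 0.16 ± 0.067 with Bach2 floxed (adjusted p = 0.0043 and 0.106). Ccna2 (cyclin A2) had the same order, at 91.9 and 81.6, 109 and 105, 106 and 118, and 123 and 121 FPKM in these 4 groups. It rose by 0.30 ± 0.073 in LZ with Bach2 floxed (adjusted p = 0.0226, limma). Ccnf rose in LZ as well (0.31 ± 0.068) and in DZ of both genotypes. Ccnb1 (cyclin B1) was at 43.8 and 38.5 in Bach2(+/+) LZ, 48.1 and 46.7 in Bach2(f/f) LZ, 65.4 and 71.1 in Bach2(+/+) DZ and 73.6 and 76.8 in Bach2(f/f) DZ. Its libraries did not overlap between genotypes in either zone, but neither difference was called (0.20 ± 0.071 in LZ, adjusted p = 0.0722; 0.14 ± 0.071 in DZ, adjusted p = 0.262, limma). Cdc25c was the lowest of the group, at 11.8 and 9.51 FPKM in Bach2(+/+) LZ and 12.8 and 10.3 in Bach2(f/f) LZ. In DZ it was at 17.1 and 18 in Bach2(+/+) and 18.6 and 18.9 in Bach2(f/f) libraries. Its genotypes overlapped in LZ.

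Foxm1, which encodes the factor that activates many of the others, was at 28.8 and 26 FPKM in Bach2(+/+) LZ, 33.7 and 34.8 in Bach2(f/f) LZ, 37.2 and 38 in Bach2(+/+) DZ and 42.3 and 41.1 in Bach2(f/f) DZ. The 4 groups did not overlap. It rose in LZ with Bach2 floxed (0.31 ± 0.056, adjusted p = 0.0083, limma) and in DZ of both genotypes (0.44 ± 0.056 and 0.28 ± 0.056), while its genotype difference in DZ was 0.15 ± 0.056 (adjusted p = 0.146).

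Polo-like kinase 1 and Aurora A build and mature the spindle poles, and NEK2 splits the centrosomes. All 3 genes rose in DZ in both genotypes, and none was called between genotypes. Nek2 went with Cdc25b and Ccnb2: its level was 25.6 to 34.2 FPKM over the 4 LZ libraries and 62.3 to 67.7 over the 4 DZ libraries (1.08 ± 0.12 with Bach2 intact). Plk1 was at 39.5 and 33.8 in Bach2(+/+) LZ, 43.4 and 42.2 in Bach2(f/f) LZ, 60.5 and 67.5 in Bach2(+/+) DZ and 78.5 and 70.3 in Bach2(f/f) DZ. Its libraries rose without overlap from group to group in that order, with genotype differences of 0.22 ± 0.093 and 0.21 ± 0.093 that were not called (adjusted p = 0.117 and 0.196, limma). Aurka was at 25.7 and 20.7, 26.4 and 26.5, 37.6 and 37.5, and 49.1 and 47.5 FPKM in the same order. It was the gene with the largest genotype difference in DZ among the 44, 0.35 ± 0.092, and was not called there (adjusted p = 0.057, limma; 0.231 without Bach2(f/f) DZ replicate 1).

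The chromosomal passenger complex (Aurora B, INCENP, survivin and borealin) corrects attachments of chromosomes to the spindle. All 4 of its genes rose in DZ with Bach2 intact and 3 of 4 with Bach2 floxed, and 3 of 4 rose in Bach2(f/f) LZ cells. Aurkb was at 58.8 and 54.8 FPKM in Bach2(+/+) LZ, 66.1 and 69.9 in Bach2(f/f) LZ, 72.2 and 73.2 in Bach2(+/+) DZ and 75 and 75.7 in Bach2(f/f) DZ. It rose by 0.26 ± 0.048 in LZ with Bach2 floxed (adjusted p = 0.00964, limma), and its zone difference was 0.35 ± 0.048 with Bach2 intact and 0.15 ± 0.048 with Bach2 floxed (adjusted p = 0.00311 and 0.0565). Birc5, the survivin gene, was at 108 and 94.1, 121 and 125, 136 and 153, and 152 and 147 FPKM in the same order. Its libraries were apart between LZ genotypes (0.28 ± 0.08, adjusted p = 0.0388, limma) and overlapped between DZ genotypes. Incenp rose in LZ by 0.30 ± 0.08, and Cdca8, for borealin, was not called between genotypes (0.19 ± 0.10 in LZ).

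The spindle assembly checkpoint delays anaphase until every kinetochore is attached, through BUB1, BUBR1 (Bub1b), BUB3, MAD2 (Mad2l1) and MPS1 (Ttk). Its genes had small zone differences, 0.24 to 0.46 with Bach2 intact, where 4 of 5 rose. With Bach2 floxed the zone differences were 0.076 to 0.37 and 2 of 5 rose, while 3 of 5 rose in LZ with Bach2 floxed. Bub1 was at 23.4 and 21.7 FPKM in Bach2(+/+) LZ, 30.4 and 30.2 in Bach2(f/f) LZ, 28.2 and 27.6 in Bach2(+/+) DZ and 33.7 and 32.3 in Bach2(f/f) DZ. Both Bach2(f/f) LZ libraries thus lay above both Bach2(+/+) DZ libraries, an order seen elsewhere among the 44 only in Top2a. With Bach2 floxed Bub1 rose in LZ by 0.41 ± 0.049 (limma, adjusted p = 0.00229). Its rise in DZ was 0.23 ± 0.049 (limma, adjusted p = 0.0312, but 0.179 without Bach2(f/f) DZ replicate 1). Mad2l1 was at 73.9 and 74.8, 87.9 and 88.9, 84 and 91.9, and 92.2 and 94.3 FPKM in the same order. The low group was Bach2(+/+) LZ (0.25 ± 0.048 below Bach2(f/f) LZ, adjusted p = 0.0115, limma), and the libraries of the other 3 groups lay between 84 and 94.3 FPKM. Bub1b was at 48.8 and 44.9, 53.9 and 56.9, 64.5 and 65.5, and 69.9 and 73.5 FPKM, with no overlap between groups. Bub3, at 83.1 and 71.1, 89.8 and 87.9, 101 and 111, and 109 and 107, rose in DZ of both genotypes without a genotype call, and its DZ genotypes overlapped. Ttk was 1 of the 2 genes not called between zones with Bach2 intact (0.24 ± 0.074, adjusted p = 0.0513, limma).

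CENP-A is the histone variant that marks centromeres, CENP-E the kinesin that carries chromosomes to the spindle equator, and CENP-F a kinetochore and nuclear matrix protein. All 3 rose in DZ in both genotypes, and their genotype differences lay between -0.042 and 0.063. Cenpe was at 31 and 28.6 FPKM in Bach2(+/+) LZ, 30.1 and 29.5 in Bach2(f/f) LZ, 46.2 and 47.6 in Bach2(+/+) DZ and 47.2 and 45.7 in Bach2(f/f) DZ. Genotypes overlapped in both zones, with differences of 0.0014 ± 0.049 and -0.013 ± 0.049, and zones were apart by 0.64 ± 0.049 and 0.62 ± 0.049. Cenpa was at 55.5 and 45.1, 54.7 and 50.1, 87.9 and 91.8, and 89.2 and 85.3 FPKM in the same order. Cenpf was at 11.2 and 9.49, 10.6 and 10.1, 16.7 and 17.3, and 17.4 and 17.5. In each of these genes all DZ libraries lay above all LZ libraries.

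**Figure D2:**
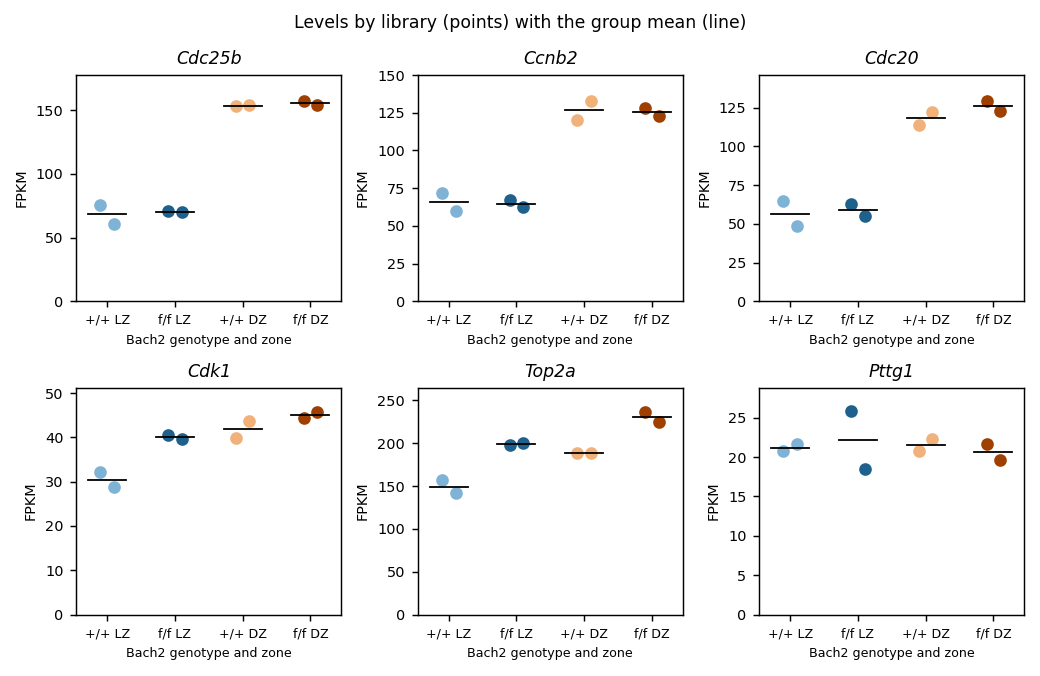
FPKM of 6 genes (panels) in each library (points) with the mean of each group of 2 (line); the axes start at 0. Cdc25b, Ccnb2 and Cdc20 split by zone, Cdk1 and Top2a are also higher in Bach2(f/f) than in Bach2(+/+) LZ libraries, and Pttg1 stays between 18.5 and 25.8 FPKM in all 8.

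The kinesin motors slide, depolymerise or carry along microtubules. All 5 rose in DZ with Bach2 intact and 4 of 5 with Bach2 floxed, and 4 of 5 rose in Bach2(f/f) LZ cells. Kif20a, which carries the passenger complex to the midzone, was at 31 and 26.3 FPKM in Bach2(+/+) LZ, 36.2 and 34.1 in Bach2(f/f) LZ, 50.5 and 54.3 in Bach2(+/+) DZ and 57.5 and 58.1 in Bach2(f/f) DZ. It had the largest zone difference of the motors (0.85 ± 0.08 with Bach2 intact) and rose by 0.29 ± 0.08 in LZ with Bach2 floxed (adjusted p = 0.0359, limma). Kif11 (Eg5), which pushes the spindle poles apart, was at 60.4 and 54, 73.2 and 68.4, 70.2 and 73.5, and 79.8 and 76.8 FPKM in the same order. Its Bach2(f/f) LZ libraries overlapped Bach2(+/+) DZ, and its zone difference with Bach2 floxed was 0.14 ± 0.065 (adjusted p = 0.136, limma). Kif2c, which depolymerises microtubules at kinetochores, and Kif4 rose in LZ by 0.30 and 0.18. Kif22 was at 45.3 and 38.6, 55 and 48, 58.5 and 66.2, and 64.2 and 66.4 FPKM; its LZ genotypes were apart but not called (0.29 ± 0.10, adjusted p = 0.074, limma).

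Spindle assembly factors nucleate and bundle spindle microtubules. All 6 rose in DZ in both genotypes, by 0.42 to 0.73 with Bach2 intact and 0.31 to 0.66 with Bach2 floxed, and 3 of 6 (Tpx2, Hmmr, Dlgap5) rose in Bach2(f/f) LZ cells. Hmmr was at 25.5 and 24.9 FPKM in Bach2(+/+) LZ, 29.1 and 27.7 in Bach2(f/f) LZ, 42.5 and 42.3 in Bach2(+/+) DZ and 44.6 and 46.1 in Bach2(f/f) DZ. Its replicates were close and its zone difference was the one with the smallest p among the 44 with Bach2 intact (0.73 ± 0.042, adjusted p = 0.000186, limma). Tpx2, the activator of Aurora A, was at 43.2 and 37.1, 48.1 and 46.5, 60.9 and 62, and 66.4 and 66 FPKM in the same order, without overlap between groups. Aspm, a spindle pole protein, was at 9.69 and 9.74, 11 and 10, 14.4 and 16.1, and 15.7 and 16.7, and its DZ genotypes overlapped. Nusap1 and Ckap2 were not called between genotypes (0.18 ± 0.055 and 0.16 ± 0.094 in LZ).

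The APC/C triggers anaphase by marking securin and cyclin B for degradation. Cdc20, its mitotic activator, was at 64.4 and 48.5 FPKM in Bach2(+/+) LZ, 62.9 and 54.7 in Bach2(f/f) LZ, 114 and 122 in Bach2(+/+) DZ and 129 and 123 in Bach2(f/f) DZ. Zones were apart by 1.06 ± 0.13 and 1.09 ± 0.13, and LZ genotypes overlapped (0.068 ± 0.13). Ube2c, its ubiquitin-conjugating enzyme, was at 94.6 and 70, 85.5 and 85.8, 133 and 166, and 146 and 144 FPKM in the same order. The replicate gaps of Ube2c in the Bach2(+/+) groups were wider than its genotype differences. Pttg1, which encodes securin, the inhibitor of separase, stood apart from the other 43 genes. It was at 20.8 and 21.6 FPKM in Bach2(+/+) LZ, 25.8 and 18.5 in Bach2(f/f) LZ, 20.8 and 22.3 in Bach2(+/+) DZ and 21.6 and 19.6 in Bach2(f/f) DZ. Its groups overlapped in every comparison, with zone differences of 0.019 ± 0.14 and -0.088 ± 0.14 (adjusted p = 0.934 and 0.664, limma). Without Bach2(f/f) LZ replicate 2, which had its lowest value, it fell in DZ with Bach2 floxed by 0.32 (adjusted p = 0.0483). Espl1, for separase, and Cdca3, a factor for mitotic entry, rose in DZ in both genotypes, and Cdca3 also rose in Bach2(f/f) LZ cells (0.32 ± 0.081).

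For cytokinesis, PRC1 bundles the midzone, ECT2 activates RhoA and anillin links the contractile ring. All 3 genes rose in DZ in both genotypes. Prc1 was at 42.5 and 36.5 FPKM in Bach2(+/+) LZ, 43.4 and 42.5 in Bach2(f/f) LZ, 55.7 and 55.3 in Bach2(+/+) DZ and 62.3 and 58.7 in Bach2(f/f) DZ, and was not called between genotypes. Ect2 was at 20.1 and 16.5, 21.6 and 18.6, 25.8 and 26.2, and 29.7 and 28.1 FPKM in the same order, also without a genotype call. Anln was at 7.77 and 7.99, 10.1 and 9.7, 9.2 and 10, and 11.4 and 11.5, so that the Bach2(f/f) LZ libraries lay among those of Bach2(+/+) DZ. With Bach2 floxed Anln rose in LZ by 0.29 ± 0.058 (limma, adjusted p = 0.0114). Its rise in DZ was 0.23 ± 0.058 (limma, adjusted p = 0.0496, but 0.208 without Bach2(f/f) DZ replicate 2).

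Top2a, topoisomerase II alpha, untangles chromosomes from S phase on, and Ki-67 (Mki67) coats them in mitosis. Top2a was at 157 and 142 FPKM in Bach2(+/+) LZ, 198 and 200 in Bach2(f/f) LZ, 189 and 189 in Bach2(+/+) DZ and 236 and 225 in Bach2(f/f) DZ. Its rise with Bach2 floxed was 0.41 ± 0.054 in LZ (limma, adjusted p = 0.00302). In DZ it was 0.29 ± 0.054 (limma, adjusted p = 0.0231, but 0.146 without Bach2(f/f) DZ replicate 1). Bach2(f/f) LZ lay above Bach2(+/+) DZ. Mki67 was at 143 and 151, 178 and 184, 215 and 218, and 224 and 242 FPKM in the same order, with no overlap between groups. It rose in LZ with Bach2 floxed by 0.30 ± 0.052 (adjusted p = 0.00746, limma) and in DZ of both genotypes.

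The zone differences with Bach2 intact and floxed come from separate libraries, and across the 44 genes they correlated at 0.96 (Pearson; Spearman 0.95), given as a description since genes share libraries. In 36 of the 44 genes every DZ library lay above every LZ library, for which the share of all genes is not given here. DZ lay above LZ without overlap in 43 genes in each genotype, against 33.1% of all genes with Bach2 intact and 35.5% with Bach2 floxed. The median level of the 44 genes was 41 and 35.1 FPKM in Bach2(+/+) LZ, 43.4 and 42.4 in Bach2(f/f) LZ, 59.5 and 63.5 in Bach2(+/+) DZ and 65.3 and 65.5 in Bach2(f/f) DZ. Group means rose in exactly that order of groups in 34 genes, also without a share of all genes given here. With 1 library left out, the median zone difference of the 44 genes was 0.46 to 0.65 with Bach2 intact. Over all genes it was then -0.0091 to 0.016. With Bach2 floxed the median was 0.44 to 0.46, against -0.011 to -0.0025 over all genes. Fewer of the 44 were called in some of these fits, more so with Bach2 floxed. Of the 42 calls with Bach2 intact, 37 held whichever library was left out; Ccna2, Kif11, Espl1, Ect2 and Anln did not.

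**Figure D3:**
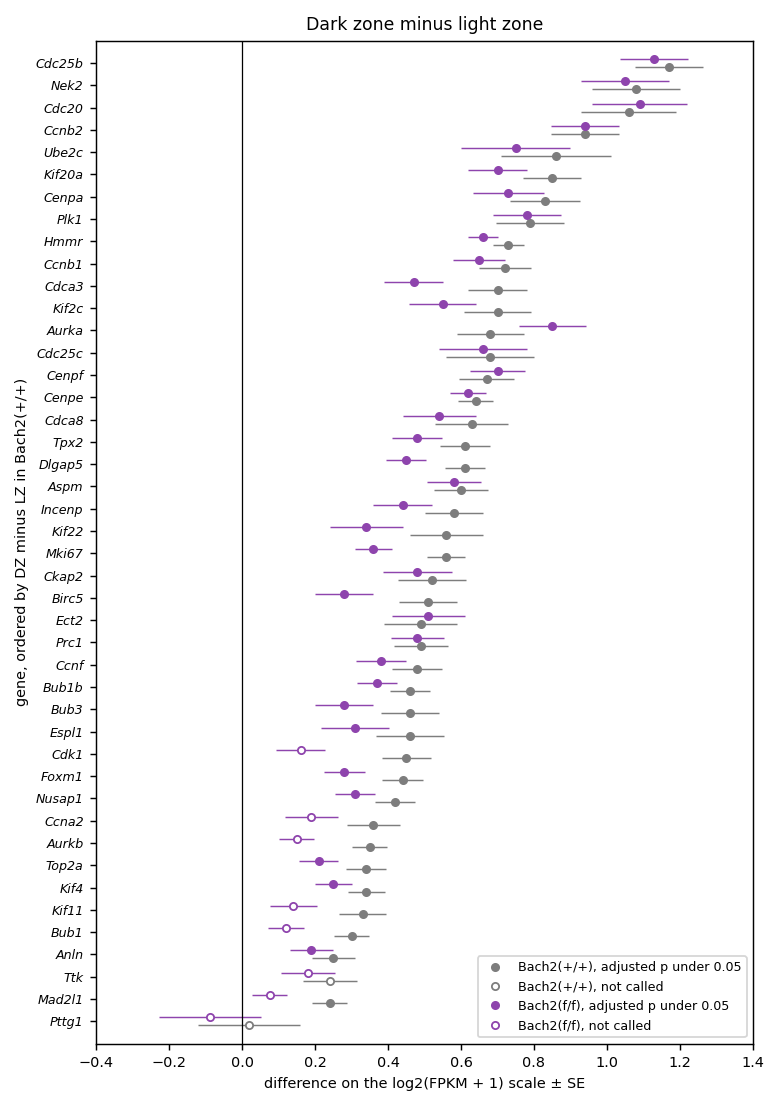
DZ minus LZ difference of each gene on the log2(FPKM + 1) scale (x axis, bars ± SE) in Bach2(+/+) cells (grey) and Bach2(f/f) cells (purple), filled where adjusted p is under 0.05. Genes run from Cdc25b (1.17 with Bach2 intact) at the top to Pttg1 (0.019) at the bottom, and 36 genes are filled in both genotypes.

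The genotype differences were smaller and rested more on single libraries. The sort marker Cd86 fell in Bach2(f/f) LZ cells (-0.32 ± 0.079, adjusted p = 0.0238, limma), the group in which the 21 genes rose, and its part in their differences was not tested. Of all genes, 1948 rose and 1351 fell in LZ with Bach2 floxed, and 1549 rose and 1855 fell after upper-quartile scaling, with which the median of the 44 genes was 0.16. Bach2(f/f) lay above Bach2(+/+) without overlap in 32 of the 44 genes in LZ and 33 in DZ, against 36.5% and 32.3% of all genes. Of the 21 genes called in LZ, Cdk1, Bub1, Top2a and Mki67 were called whichever library was left out (adjusted p up to 0.0486), and the other 17 were lost without at least 1 library (up to 0.177). The median LZ genotype difference of the 44 genes was 0.19 without Bach2(f/f) LZ replicate 1, against 0.019 over all genes. Without Bach2(f/f) LZ replicate 2 it was 0.24, against 0.027. Bach2(+/+) LZ replicate 2 was below replicate 1 in 39 of the 44 genes, against 55.2% of all genes tested, with a median difference between these replicates of -0.21. In the other groups the median difference between replicates was -0.035 to 0.062. That library also had 21.7 FPKM of the neutrophil gene S100a8 against 3.03 in replicate 1. In Bach2(f/f) LZ, S100a8 was at 5.51 and 53.1 FPKM, and the median replicate difference of the 44 genes was -0.035. The part of neutrophil RNA in these differences was not tested. The median LZ genotype difference of the 44 genes was 0.30 without replicate 1 and 0.12 without replicate 2 of Bach2(+/+) LZ. Of the DZ calls, Bub1 and Top2a held with either Bach2(+/+) LZ library left out and were lost when any 1 of the other 6 libraries was. Anln was lost whichever library was left out (adjusted p 0.0613 to 0.208, limma).

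**Figure D4:**
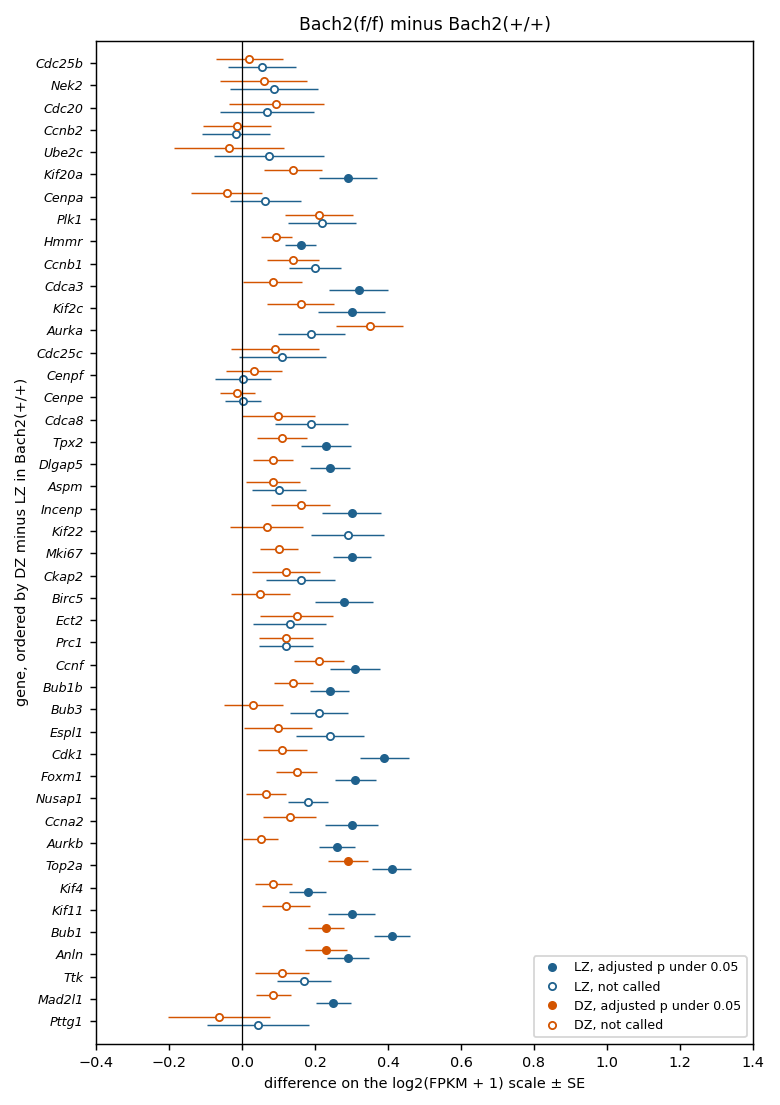
Bach2(f/f) minus Bach2(+/+) difference of each gene on the log2(FPKM + 1) scale (x axis, bars ± SE) in LZ (blue) and DZ (orange), filled where adjusted p is under 0.05, in the gene order of the zone plot. Bub1 and Top2a (0.41 each in LZ) lie farthest to the right, while Cenpe, Cenpf and Ccnb2 lie between -0.018 and 0.032 in both zones.

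The genes with the largest zone differences were mostly not those with the largest genotype differences. The 7 genes with the largest DZ minus LZ difference with Bach2 intact were Cdc25b, Nek2, Cdc20, Ccnb2, Ube2c, Kif20a and Cenpa, at 0.83 to 1.17; their LZ genotype differences were -0.018 to 0.29, and 1 of the 7 was called. The 7 with the largest LZ genotype difference were Bub1, Top2a, Cdk1, Cdca3, Ccnf, Foxm1 and Ccna2, at 0.30 to 0.41; their zone differences were 0.30 to 0.70 with Bach2 intact and 0.12 to 0.47 with Bach2 floxed. These comparisons share LZ libraries and the genes were picked on their values, so the numbers are set side by side only. The LZ and DZ genotype differences share no library and correlated at 0.62 across the 44 genes (Pearson; Spearman 0.61, a description).

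Whether the genotype effect differs between zones was tested by the interaction, the DZ effect minus the LZ effect. Of the 44 genes 0 were called (limma), against 0.0283% of all genes in either direction. Unadjusted, 4 had a p under 0.05, namely Cdk1 (-0.28 ± 0.095), Aurkb (-0.21 ± 0.068), Mki67 (-0.19 ± 0.073) and Bub1 (-0.18 ± 0.069), with adjusted p of 0.381 to 0.414. The difference was below 0 in 39 of the 44, with a median of -0.11 (-0.031 without Bach2(+/+) LZ replicate 2) and -0.014 over all genes. A smaller effect in DZ is thus not shown for any single gene.

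Other cell cycle genes, in lists written from general knowledge, were set beside these. For all these lists, the shares of all genes that rose are the comparison. With Bach2 floxed, these were 18.4% in LZ and 6.63% in DZ. From LZ to DZ the share was 16.1% in each genotype. Among G1/S and replication genes, 29 of 33 rose in LZ with Bach2 floxed and 16 in DZ (medians 0.41 and 0.24), and 22 rose in DZ with Bach2 intact (median 0.24) but 10 rose and 1 fell with Bach2 floxed (median 0.025). Mcm6, a subunit of the replicative helicase, was at 167 and 157 FPKM in Bach2(+/+) LZ, 225 and 229 in Bach2(f/f) LZ, 214 and 213 in Bach2(+/+) DZ and 266 and 263 in Bach2(f/f) DZ. Its Bach2(f/f) LZ libraries lay above those of Bach2(+/+) DZ, the order also seen in Top2a and Bub1. The 1 that fell was Tyms, thymidylate synthase (-0.32 ± 0.05, adjusted p = 0.00451, limma). The summed FPKM of the 44 mitotic genes over that of the 33 G1/S genes was 0.973 and 0.914 in Bach2(+/+) LZ, 0.829 and 0.81 in Bach2(f/f) LZ, 1.16 and 1.21 in Bach2(+/+) DZ and 1.09 and 1.07 in Bach2(f/f) DZ. The ratio was thus higher in DZ than in LZ and lower with Bach2 floxed than intact in each zone, without overlap between groups.

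**Figure D5:**
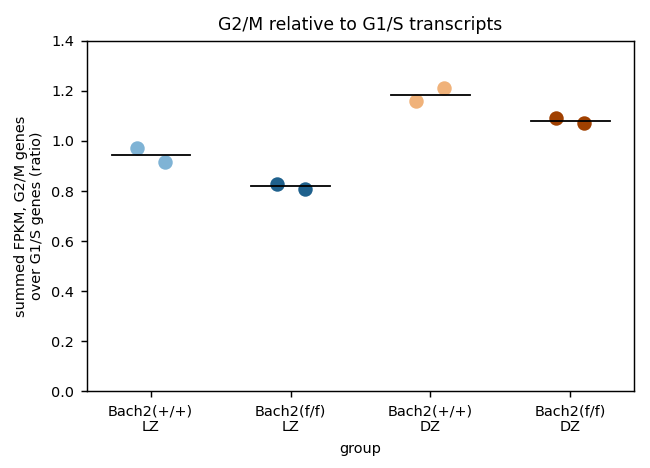
Summed FPKM of the 44 G2/M genes divided by that of 33 G1/S genes (y axis, from 0) in each library (points) with the mean of each group of 2 (line). The LZ libraries lie between 0.81 and 0.973 and the DZ libraries between 1.07 and 1.21, with Bach2(f/f) below Bach2(+/+) in each zone.

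Of 8 other mitotic kinesin and centralspindlin genes, 7 rose in DZ in each genotype (medians 0.39 and 0.32) and 2 rose in LZ with Bach2 floxed, led by Kif15 (0.26 ± 0.051). Of 8 condensin genes, which compact chromosomes, all 8 rose in LZ with Bach2 floxed and 3 in DZ, and 6 rose from LZ to DZ with Bach2 intact and 3 with Bach2 floxed (medians 0.22 and 0.13). Ncapg2 went from 23.5 and 23.4 to 33.1 and 32.3 FPKM in LZ (0.46 ± 0.037, adjusted p = 0.000997, limma). Of 25 kinetochore core genes, 14 rose in LZ with Bach2 floxed (median 0.31). Between zones 9 of the 25 rose in DZ with Bach2 intact and 4 with Bach2 floxed (medians 0.14 and -0.024). The latter count was near the share of all genes, 16.1%. Of 11 cohesin genes 6 rose in LZ with Bach2 floxed, and 5 rose in DZ in each genotype, Rad21 among them (0.48 ± 0.054 with Bach2 intact). Of 12 APC/C core subunit genes, 4 rose in each of the LZ genotype comparison and both zone comparisons. Of all genes, 18.4% rose in the first and 16.1% in each zone comparison. Anapc2 split by zone, at 30.1 to 31.6 FPKM in LZ and 40.8 to 41.9 in DZ, and Cdc26 fell in DZ with Bach2 floxed (-0.24).

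Among 11 tested genes listed for the control of mitotic entry or exit, 5 rose and 1 fell in LZ with Bach2 floxed. In DZ 1 rose and 1 fell. Of all genes, 18.4% rose and 12.7% fell in LZ, and 6.63% rose and 5.23% fell in DZ. Fbxo5, the APC/C inhibitor EMI1, went from 38 and 37.3 FPKM to 51.4 and 49.8 in LZ (0.41 ± 0.04), and the CDK1-inhibiting kinase gene Wee1 rose by 0.33 ± 0.053. The one that fell in both zones was the anti-proliferative gene Btg2, at 45.4 and 44.7 in Bach2(+/+) LZ, 31.8 and 32.2 in Bach2(f/f) LZ, 54.2 and 51.1 in Bach2(+/+) DZ and 43.2 and 43.6 in Bach2(f/f) DZ (-0.48 ± 0.041 and -0.27 ± 0.041, adjusted p = 0.00107 and 0.0128, limma). Of 11 genes of the DREAM and MuvB complexes and their MYB partners, 5 rose and 1 fell in LZ with Bach2 floxed. Mybl2 (B-MYB, the activating partner of MuvB) went from 27.4 and 25.4 FPKM to 37.3 and 36.8, and Rbl2 (p130, the repressive partner) from 11.2 and 11.7 to 9.08 and 8.94 (0.47 ± 0.048 and -0.32; adjusted p = 0.00162 and 0.00773, limma). With Bach2 floxed, Mybl2, Fbxo5 and the phosphatase inhibitor gene Arpp19 fell from LZ to DZ (-0.20, -0.18 and -0.25), against the direction of the 36 mitotic genes called there. Of the 4 genes listed for the greatwall pathway, which protects mitotic phosphorylation, 2 rose in LZ with Bach2 floxed, Mastl and Arpp19.

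By profile over the 8 libraries, the genes most like the mean of the 44 among 8278 others with at least 5 FPKM in a group were Hmgb2, Rad21, 8430410A17Rik, Prr11, Arhgap19, Ube2s, Tubb4b, Usp2, Anp32e and Mnd1 (Pearson 0.9923 to 0.9969 over 8 libraries, a description). Hmgb2, a chromatin protein, was at 404 and 370 FPKM in Bach2(+/+) LZ, 462 and 442 in Bach2(f/f) LZ, 515 and 532 in Bach2(+/+) DZ and 565 and 549 in Bach2(f/f) DZ. Ube2s, the chain-elongating enzyme of the APC/C, was at 186 and 150, 218 and 195, 249 and 278, and 292 and 294 in the same order.

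Markers of other cell types also differed between zones. The summed FPKM of 8 myeloid and neutrophil markers was 15.3 and 59.4 at the extremes of Bach2(+/+) LZ, 28.7 and 150 in Bach2(f/f) LZ, and 6.76 to 8.35 over the DZ libraries; S100a8 was at 21.7 FPKM in Bach2(+/+) LZ replicate 2 and 53.1 in Bach2(f/f) LZ replicate 2, and at 0 in 2 DZ libraries. Of 7 T cell markers, Lck was at 32.7 to 64.6 FPKM and the other 6 at no more than 0.724 in any library. Summed erythroid markers (7 genes) were at 25.6 to 35.9 in LZ and 16.9 to 22.7 in DZ. The sums of 5 B cell markers were 3570 to 3690 FPKM in Bach2(+/+) LZ, 3090 to 3100 in Bach2(f/f) LZ, 3060 to 3180 in Bach2(+/+) DZ and 2650 to 2690 in Bach2(f/f) DZ, and those of 5 naive and follicular markers 295 to 313, 150 to 157, 81.6 to 87.3 and 36.7 to 37.5. Plasma cell markers (6 genes, most of it from Xbp1 and Igj) summed to 309 to 325, 368, 431 to 449 and 460 to 472. Of the 6, only Igj rose in that order of groups, from 238 and 229 FPKM in Bach2(+/+) LZ to 388 and 398 in Bach2(f/f) DZ. Xbp1 was at 68.8 to 80.6 over the 8 libraries. Irf4 was at 11 to 13 in LZ and 1.99 to 4.05 in DZ, the other direction. The part of these other cells and states in the mitotic differences was not tested.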

How the data were processed

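The authors deposited FPKM per gene for 8 libraries, made with TopHat2 2.0.8 and Cufflinks 2.1.1 on mm9, per the submitters' processing notes; the annotation and strand setting are not given in the sources used here. FPKM holds no counts, so no count model was used. Each column was matched to its sample by name, and 1 row of library codes was left out. Values were taken as log2(FPKM + 1), kept at 1 FPKM or more in at least 2 libraries, and fitted as 4 group means over all 8 libraries with limma 3.58.1 in R 4.3.3 (intensity trend, 4 residual and 2.46 prior degrees of freedom, 2-sided tests, Benjamini-Hochberg within each comparison). The fit was tested on simulated data, but no outcome of that test is given here. Alternatives were the pseudocount, the filter, scaling, the trend, the libraries fitted, a replicate block and leaving out each library. The 44 genes and the other lists were chosen with earlier results of these data known, and lists are described by counts and medians with no set test. Values of every library were given for 30 genes fixed by name and for members that went against the majority; those of Bub1 and Anln were added after their values were seen. Of the other lists, at most 3 genes with the smallest p in a comparison were named, with those called against their list. Same-numbered replicates are not known to share a pool.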

Additional observations from a re-analysis of the deposited data

How the results depend on the processing

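Single-gene values were compared for the genes fixed by name only, not for all 44 genes, and none of these reversed a call. Of 2670 comparisons of 1 of these genes with an alternative, 2529 kept their side of the threshold, 119 lost and 22 gained a call. Among them, 96 values that were called in neither fit changed sign. The count of genes higher in Bach2(f/f) LZ cells, 21, was 9 with no filter, 13 after quantile normalization, 9 with only the libraries compared, and 6 to 33 with 1 library left out. The count in DZ, 3, was 0 with no filter and 0 to 4 with 1 library left out. The count lower in DZ with Bach2 floxed, 0, was 0 to 1 with 1 library left out. The share of all genes that rose in LZ with Bach2 floxed, 18.4%, also depended on the setting. It was 5.15% with no filter, 15.3% after quantile normalization and 12.7% with only the libraries compared. In DZ that share was 6.63%, and 1.39% with no filter. Shares with 1 library left out are not given here. With no filter or with fewer libraries the fit differs by construction. For the other changes the cause was not tested. A lone library left in a group is assumed to vary like the other groups. Deviations of same-numbered replicates correlated at -0.11 to 0.12 across genes, which cannot show whether such libraries share a pool. With a replicate block the counts were 17 in LZ and 2 in DZ between genotypes, and 42 and 31 between zones. The interaction gave 0 calls among the 44 genes in all settings run. FPKM keeps no depth, so counting error is unknown, and 2 libraries a group limit all comparisons.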
